A study of Rattus norvegicus with 20 samples.

Results

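The contralateral (right) dorsal root ganglia (DRG) of rats with chronic constriction injury (CCI) of the left sciatic nerve were compared with the left DRG of sham-operated rats, all fed the soy oil diet. Members were chosen by diet, surgery and side in the sample labels: 3 contralateral libraries of the soy oil CCI group (SOD-CCI) and 4 libraries of the soy oil sham group (SOD-CT), 7 of the 20 libraries of the series. All were wild-type, young adult, female Sprague-Dawley rats, and the diet began 4 weeks before surgery. In SOD-CCI rats the left sciatic nerve was loosely ligated with chromic gut, and the right side was not operated on. In SOD-CT rats the left nerve was exposed and left untied. The DRG were taken 1 week after surgery, within an experiment whose diets ran on for 4 further weeks. The 7 libraries came from 7 rats, and the injured left DRG of the same 3 SOD-CCI rats are given beside them where they help. The comparison asks whether a nerve injury is accompanied by changes in ganglia whose own nerve was spared. Side, surgery on that side and injury elsewhere in the rat change together between the 2 groups and cannot be told apart. The spinal level of the DRG is not stated, and a planned SOD-CCI sample was left out by the authors before library preparation.

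A DRG holds the cell bodies of sensory neurons, each wrapped in satellite glia, together with myelinating Schwann cells, resident macrophages, vessels and a connective tissue sheath. When a peripheral axon is damaged, its neuron switches on transcription factors such as Atf3, Jun and Sox11 and neuropeptides such as Npy, Gal and Vip, and macrophages gather around it. C1q, made mostly by macrophages in nervous tissue, starts the classical complement pathway, while interferon response genes mark antiviral signaling.

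The 7 libraries held 22792829 to 43158491 counts. SOD-CT replicate 1 stood apart: 18.3% of its counts fell in the skeletal muscle list, against 0.0242% to 0.962% in the other 6 libraries, and 129 genes with at least 100 counts in each of the other 6 were at 0 in it. List medians and the fold changes of many main genes are therefore given with this library and without it. Some genes have a fold change without it only, and single genes are given by their value in each library or their range. SOD-CT replicate 4 carried 1.02% of its counts in hemoglobin and other red cell genes, against 0.0146% to 0.0930% in the other 6. Contralateral replicate 1 had the lowest summed level of Schwann cell markers, 9071 CPM (counts scaled to library size), where the other contralateral libraries held 38050.3 and 40527. The defining neuron markers were high throughout, with a summed level of 14793 to 34159 CPM in SOD-CT and 30312 to 37674 CPM in contralateral DRG. In these bulk samples, fewer cells of a type and less RNA per cell cannot be told apart.

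No gene was called by the main test, the quasi-likelihood test of edgeR on 13303 genes (0% called in either direction, lowest adjusted p = 0.730). Calling a gene required a 1.2-fold difference and an adjusted p no larger than 0.1. At an unadjusted p below 0.05, 713 genes (5.36%) were lower in contralateral DRG and 130 (0.977%) were higher, 843 in all against 665 expected. Without SOD-CT replicate 1, edgeR again called 0 of 14576 genes (lowest adjusted p = 0.603), with 648 (4.45%) lower and 154 (1.06%) higher at p below 0.05. DESeq2 called 41 genes lower (0.308%) and 0 higher with 7 libraries, and 116 lower (0.796%) and 2 higher (0.0137%) without replicate 1. Of these, 34 genes were lower in both, 82.9% of the first and 29.3% of the second. With SOD-CT replicates 2, 3 or 4 left out DESeq2 called 148, 245 and 14 genes lower, and with contralateral replicates 1, 2 or 3 left out 32, 14 and 61. Limma voom called 11 genes lower (0.0827%) with 7 libraries and 11 (0.0755%) without replicate 1, of which 7 were shared. Among genes of the macrophage, complement, MHC class II, chemokine, cytokine, interferon and neutrophil lists, DESeq2 called 1 of 73 tested lower with 7 libraries and 19 of 85 without replicate 1. The number of calls thus depended on the tool, while calls were almost all in the direction of lower levels in contralateral DRG. In counts simulated from these libraries, DESeq2 called 58 unchanged genes with 7 libraries and 73 without replicate 1. EdgeR called 19 and 16 unchanged genes there, fewer than DESeq2. The simulated counts held genes changed by up to 8-fold and no library set apart by muscle or blood content. They therefore do not give the number of false calls among the DESeq2 calls cited below. Ranges also leaned on the libraries used: in 510 genes (3.83%) all contralateral libraries lay below all SOD-CT libraries, and in 674 (5.07%) above, and without replicate 1 these counts were 853 (5.85%) and 937 (6.43%).

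Taken as lists, the transcription factors and neuropeptides that mark an injured sensory neuron were not higher in contralateral DRG than in sham DRG. Of the 11 gene IDs in the list of injury transcription factors, 9 were tested with a median log2FC of −0.17 (−0.25 over 10 genes without replicate 1), beside −0.02 over all genes, and 0 were called by edgeR. Atf3, a stress-induced transcription factor and a standard marker of axotomized neurons, measured 20.5, 44.2, 12.3 and 49.9 CPM in SOD-CT replicates 1 to 4 and 6.11, 15.1 and 8.20 CPM in contralateral replicates 1 to 3. The groups overlapped through SOD-CT replicate 3, and the injured left DRG of the SOD-CCI rats, at 325, 243 and 278 CPM, lay far above both. The log2FC of Atf3 was −1.69 ± 0.55 (SE, n = 3 and 4, edgeR adjusted p = 0.730), and without replicate 1 DESeq2 called it lower (log2FC −1.86 ± 0.49, adjusted p = 0.0397). A second gene ID carries the same symbol, so that some Atf3 reads may be counted there.

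Neuropeptides of the injury response showed the same order, with sham values that differed widely between rats. Npy, neuropeptide Y, was at 0, 47.1, 4.58 and 63.4 CPM in SOD-CT and at 1.80, 3.71 and 1.22 CPM in contralateral DRG, and at 385, 435 and 343 CPM on the injured side. It was too low in SOD-CT replicate 1 to enter the test with 7 libraries. Without that library every contralateral value lay below every SOD-CT value, and DESeq2 called Npy lower (log2FC −4.09 ± 1.02, adjusted p = 0.0208), while edgeR gave −4.10 ± 0.85 with an adjusted p of 0.827. Gal, galanin, held 5.53, 55.6, 10.9 and 46.1 CPM in SOD-CT against 20.2, 6.61 and 8.15 CPM in contralateral DRG, and these ranges overlapped. Vip, vasoactive intestinal peptide, was not tested, with 0, 21.8, 0.953 and 23.8 CPM in SOD-CT and 0.178 to 0.472 CPM in contralateral DRG. SOD-CT replicates 2 and 4 were the libraries with the high values of Atf3, Npy, Gal and Vip. Sprr1a, a regeneration gene, was at 1.25 and 1.61 CPM in those same 2 sham libraries and at 0 in the other 2 and in all 3 contralateral libraries.

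Other genes of the injury response differed from sham by less than Atf3 and Npy. Jun, a partner of Atf3, ran from 96.6 to 123 CPM in contralateral DRG and from 123 to 185 CPM in SOD-CT, against 341 to 448 CPM on the injured side. Every contralateral value of Jun was below every SOD-CT value, yet the log2FC of −0.43 ± 0.25 was not called (edgeR adjusted p = 0.730) and was −0.30 ± 0.20 without replicate 1. Gap43, a growth cone protein, averaged 202 ± 65.1 CPM (SD, n = 3) in contralateral DRG and 201 ± 66.9 CPM (SD, n = 4) in SOD-CT, where the injured side held 625 to 863 CPM. Sox11, a developmental transcription factor, ran from 1.88 to 3.66 CPM in contralateral DRG, from 0 to 9.42 CPM in SOD-CT and from 24 to 38 CPM on the injured side. Stat3, the signal transducer of gp130 cytokines, measured 267, 224 and 259 CPM in contralateral DRG against 126 to 252 CPM in SOD-CT, and Gadd45a, a DNA damage gene, 22.1 to 36.6 against 25.9 to 60.0 CPM. The axon growth list of 20 genes, 14 of them tested, had a median log2FC of 0.05, which was −0.06 over 17 genes without replicate 1 and −0.25 in voom. Every contralateral library lay above sham in 2 of the 14 and below in 0 (5.07% and 3.83% of all genes). Without replicate 1 these were 2 and 2 of the 17 (6.43% and 5.85% of all genes). Csf1, the macrophage growth factor that injured sensory neurons release, held 9.68, 10.1 and 18.0 CPM in contralateral DRG, 7.15, 28.8, 22.8 and 21.5 CPM in SOD-CT and 93.3 to 104 CPM on the injured side. Without replicate 1 its contralateral values all lay below sham (edgeR log2FC −0.95 ± 0.32, adjusted p = 0.842). Sox11, Vip, Sprr1a, Gap43 and Csf1 were chosen after their values were seen.

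**Figure D1:**
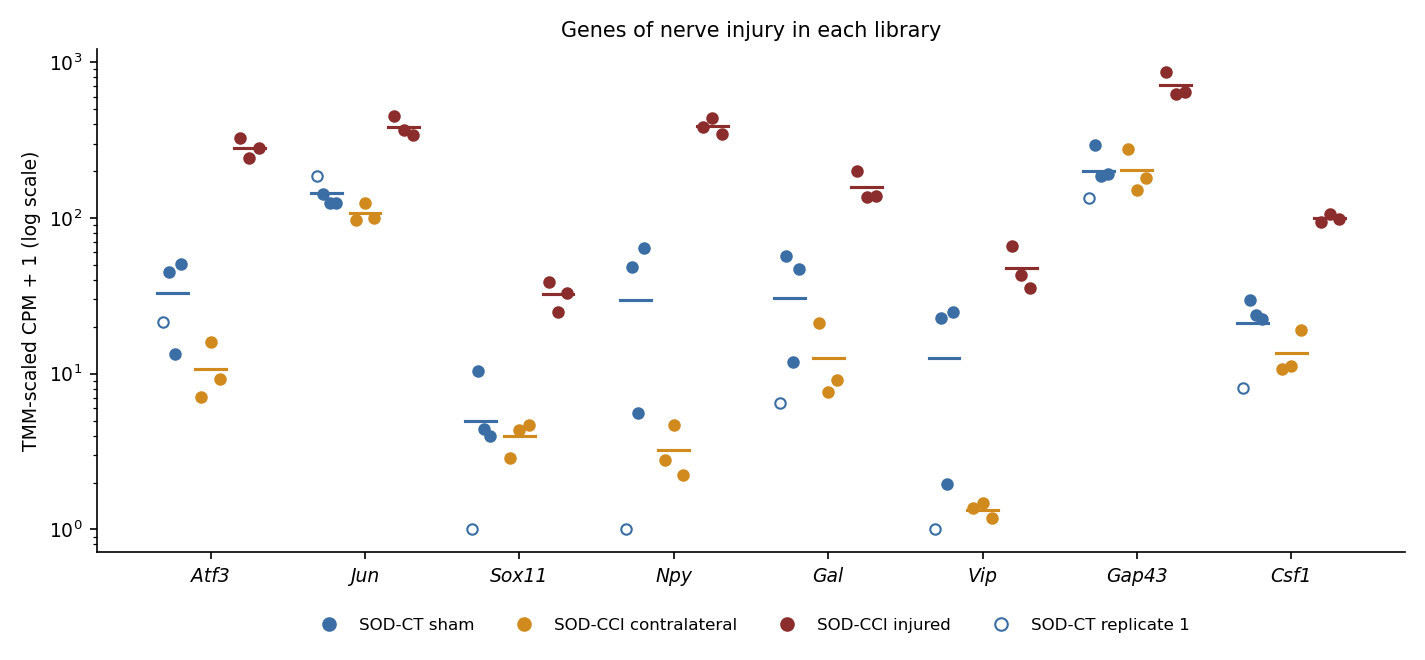
Levels of 8 genes of nerve injury in each soy oil library, as TMM-scaled CPM plus 1 on a log axis (points are libraries, bars are group means, the open circle is SOD-CT replicate 1). The injured side of the SOD-CCI rats lies above both other groups for each gene (Atf3 243 to 325 CPM), whereas the contralateral DRG lie within or below the sham range for Atf3, Npy and Vip.

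Macrophage markers lay lower in contralateral DRG than in most sham libraries. Of the 12 markers 6 were tested with 7 libraries, and all 6 had a log2FC below 0 (51.5% of all genes did), with a median of −1.19 and 5 at an unadjusted edgeR p below 0.05. Without SOD-CT replicate 1 there were 9 tested, all 9 below 0 (50.4% of all genes) and at p below 0.05, with a median of −1.57, and in 8 of the 9 every contralateral library was below every SOD-CT library. DESeq2 called 6 of these 9 lower, and edgeR called 0. With 7 libraries DESeq2 called 0 of the 6 tested (0.308% of all genes). Every contralateral library was then below every SOD-CT library in 2 of the 6 (3.83% of all genes). Over all genes, 5.36% were lower at an edgeR p below 0.05 with 7 libraries and 4.45% without replicate 1. In that second set 5.85% lay below sham in every library and DESeq2 called 0.796% lower. The summed level of the macrophage list was 40.8 to 98.3 CPM in contralateral DRG, 64.3 to 224 CPM in SOD-CT and 218 to 345 CPM on the injured side.

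The 3 chains of C1q had similar profiles. C1qa measured 13.5, 47.4, 33.2 and 37.1 CPM in SOD-CT and 8.46, 14.0 and 15.7 CPM in contralateral DRG, against 41.6, 61.0 and 64.4 CPM on the injured side. SOD-CT replicate 1 alone reached into the contralateral range. The edgeR log2FC of C1qa was −1.37 ± 0.45 (adjusted p = 0.730) with 7 libraries and −1.63 ± 0.30 (adjusted p = 0.827) without replicate 1, and DESeq2 called it lower without replicate 1 (adjusted p = 0.000926). C1qb was at 0, 18.5, 19.8 and 26.3 CPM in SOD-CT and at 3.68, 4.99 and 7.53 CPM in contralateral DRG, so that its groups separated once the library at 0 was set aside (DESeq2 log2FC −1.99 ± 0.36, adjusted p = 9.4e-05). C1qc went from 33.3 ± 7.04 CPM (SD, n = 3, without replicate 1) in SOD-CT to 12.5 ± 3.54 CPM (SD, n = 3) in contralateral DRG. On the injured side of the same rats, C1qb held 30.9 to 32.1 CPM and C1qc 31.5 to 58.6 CPM, so that the contralateral DRG were the lowest of the 3 groups for both chains apart from SOD-CT replicate 1.

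Lysosomal and surface genes of macrophages followed. Lyz2, lysozyme of myeloid cells, measured 84.5, 252, 230.1 and 436 CPM in SOD-CT, 53.3, 73.8 and 97.8 CPM in contralateral DRG and 238 to 375 CPM on the injured side. Only SOD-CT replicate 1 overlapped the contralateral range, and without it the edgeR log2FC was −2.03 ± 0.32 (adjusted p = 0.827), with DESeq2 and voom both calling Lyz2 lower (adjusted p = 7.45e-06 and 0.0343). Over 26 settings of processing the log2FC of Lyz2 ran from −2.03 to −1.23, and DESeq2 did not call it with 7 libraries. Csf1r, the receptor for Csf1 on which macrophages depend, held 19.1, 51.5, 55.6 and 32.6 CPM in SOD-CT and 5.30, 18.0 and 25.8 CPM in contralateral DRG. It was not called by any of the 3 tools without replicate 1 (edgeR log2FC −1.51 ± 0.49, edgeR adjusted p = 0.842). Its log2FC ran from −1.79 to −0.86 over the 26 settings. Cd68, a lysosomal glycoprotein of phagocytes, reached 1.89 CPM at most in contralateral DRG and 4.29 to 5.22 CPM in SOD-CT replicates 2 to 4, with 0 in replicate 1. Mrc1, the mannose receptor of tissue-resident macrophages, ran from 4.49 to 8.35 CPM against 8.90 to 15.8 CPM, and here all 4 SOD-CT libraries lay above. Adgre1, the F4/80 antigen, ran from 2.83 to 7.31 CPM against 4.99 to 15.9 CPM. Per unit of transcript length, Lyz2 was the most abundant of these genes, at a mean of 61.9 FPKM in contralateral DRG, where C1qa was at 12.5 FPKM and Adgre1 at 1.53 FPKM.

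**Figure D2:**
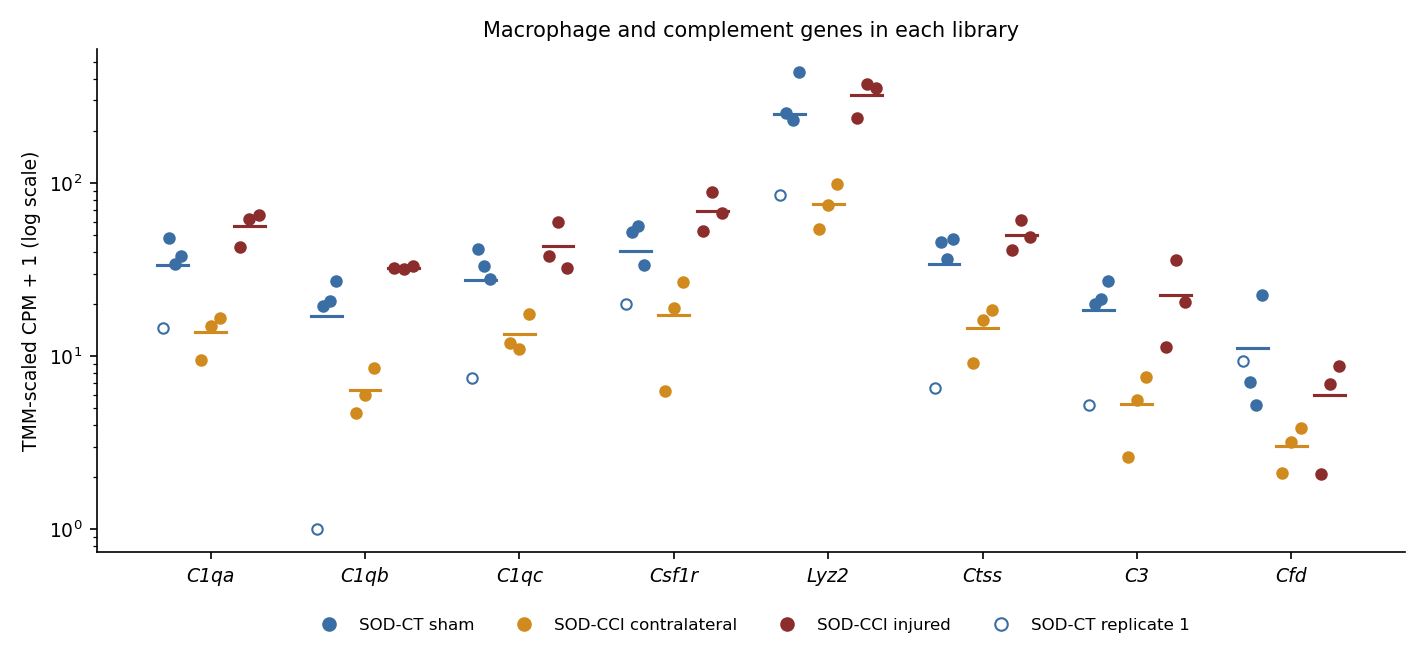
Levels of 8 macrophage and complement genes in each soy oil library, as TMM-scaled CPM plus 1 on a log axis (points are libraries, bars are group means, the open circle is SOD-CT replicate 1). Contralateral DRG (53.3 to 97.8 CPM for Lyz2) lie below SOD-CT replicates 2 to 4 and mostly below the injured side, while SOD-CT replicate 1 falls near or below the contralateral values for most genes.

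The promoters of 3 genes of myeloid cells are shown because DESeq2 called each lower without replicate 1 and each holds the letters searched for. They were chosen after both were seen, and Lyz2 and Ctss are not on the macrophage list. The 200 bases before the start of each gene are given from RefSeq on the GRCr8 build, 5′ to 3′ on the strand of the gene, with the 6 letters GAGGAA, a core recognized by ETS factors such as PU.1 of myeloid cells, or their reverse complement TTCCTC in capitals. C1qb lies at chr5:154407828-154408027 on the minus strand, Lyz2 at chr7:54798012-54798211 on the minus strand and Ctss at chr2:185775196-185775395 on the plus strand.
C1qb: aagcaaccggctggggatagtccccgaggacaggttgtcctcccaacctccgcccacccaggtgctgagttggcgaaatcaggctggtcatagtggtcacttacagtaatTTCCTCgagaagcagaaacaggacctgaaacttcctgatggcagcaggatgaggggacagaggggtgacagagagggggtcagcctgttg
Lyz2: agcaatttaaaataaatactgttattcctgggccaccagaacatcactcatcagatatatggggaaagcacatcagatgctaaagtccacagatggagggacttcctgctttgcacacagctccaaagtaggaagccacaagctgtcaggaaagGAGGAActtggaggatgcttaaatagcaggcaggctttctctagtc
Ctss: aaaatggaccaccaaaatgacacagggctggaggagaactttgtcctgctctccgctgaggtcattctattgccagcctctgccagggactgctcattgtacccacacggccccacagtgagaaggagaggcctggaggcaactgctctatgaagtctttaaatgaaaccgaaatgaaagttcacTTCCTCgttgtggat
Searched on both strands, these letters occurred in 6361 of 33469 rat promoters of this length (19.0%) and in 6 of the 10 macrophage markers that have an entry (C1qb, Cd68, Csf1r, Itgam, Mrc1 and Ptprc). A match of letters is a description and not a measured binding site.

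Complement genes, among them the 3 of C1q and Itgam that the macrophage list also holds, were lower in most cases. Of the 21 listed, 15 were tested and 14 had a log2FC below 0, with a median of −1.10, 6 at an edgeR p below 0.05 and 1 called by DESeq2. Without replicate 1, 15 of 17 were below 0, the median was −1.28, 11 were at p below 0.05, 13 had every contralateral library below sham and DESeq2 called 9. Over all genes, 5.36% with 7 libraries and 4.45% without replicate 1 were lower at p below 0.05. DESeq2 called 0.308% and 0.796% lower, and without replicate 1 5.85% lay below sham in every library. Cfd, complement factor D or adipsin, was the one called by DESeq2 with 7 libraries (adjusted p = 0.0710). It measured 8.36, 6.11, 4.26 and 21.7 CPM in SOD-CT and 1.10, 2.19 and 2.84 CPM in contralateral DRG, with no overlap (edgeR log2FC −2.29 ± 0.65, and −2.37 ± 0.66 without replicate 1). C3, the central component of the cascade, held 4.25, 19.0, 20.5 and 26.1 CPM in SOD-CT and 1.62, 4.58 and 6.60 CPM in contralateral DRG. SOD-CT replicate 1 again sat among the contralateral libraries, and without it DESeq2 gave C3 a log2FC of −2.35 ± 0.45 (adjusted p = 0.000509). The log2FC of C3 ran from −2.51 to −1.64 over 26 settings. Cfb, a protease of the alternative pathway, ran from 1.91 to 5.33 CPM in contralateral DRG against 5.86 to 12.6 CPM in SOD-CT, with no overlap in the 7 libraries. C1s, a C1 protease, and Serping1, the C1 inhibitor, were called lower by DESeq2 without replicate 1 (each with an adjusted p of 0.0289). The membrane regulators Cd59 and Cd55 did not share the pattern, with means of 744 ± 81.8 and 176 ± 65.9 CPM (SD, n = 3) in contralateral DRG and 670.2 ± 115 and 224 ± 80.7 CPM (SD, n = 4) in SOD-CT. C1qc, Mrc1, Adgre1, Lyz2, C3, C1s, Cfb and Serping1 were chosen after their values were seen.

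Genes of antigen presentation lay in the same direction with wider ranges. The MHC class II list of 11 genes had 4 tested, all below 0, with a median log2FC of −1.09, and −1.35 over 5 genes without replicate 1, of which DESeq2 called 2 (0.796% of all genes were called lower). With 7 libraries DESeq2 called 0 of the 4 (0.308% of all genes). Cd74, the invariant chain, measured 28.0, 212, 181 and 83.1 CPM in SOD-CT and 28.9, 79.6 and 95.1 CPM in contralateral DRG, and the ranges overlapped with and without replicate 1. Ctss, cathepsin S, which trims the invariant chain, held 5.59, 44.6, 35.4 and 46.6 CPM in SOD-CT and 8.17, 15.2 and 17.5 CPM in contralateral DRG. Without replicate 1 the groups for Ctss separated and DESeq2 called it lower (log2FC −1.63 ± 0.33, adjusted p = 0.00171). Its log2FC ran from −1.63 to −0.71 over 26 settings, and DESeq2 did not call it with 7 libraries. RT1-Da, a class II alpha chain, ran from 12.9 to 42 CPM against 13.5 to 78.7 CPM. RT1-Db1, a class II beta chain chosen after its values were seen, was called lower by DESeq2 without replicate 1 (log2FC −1.68 ± 0.49, adjusted p = 0.0867). RT1 genes are a family of close copies, and reads may be split between them.

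Most chemokine genes lay lower, though not all. Of the 31 listed chemokines and receptors 11 were tested and 9 had a log2FC below 0, with 5 at an edgeR p below 0.05, 2 with every contralateral library below sham and a median of −0.95. Without replicate 1, 10 of 13 were below 0, 5 were at p below 0.05, 3 lay below sham in every library and the median was −0.50. Over all genes, 5.36% with 7 libraries and 4.45% without replicate 1 were lower at p below 0.05, and 3.83% and 5.85% lay below sham in every library. Ccl2, which draws monocytes, held 49.7, 45.6, 28.5 and 45.9 CPM in SOD-CT, 29.6, 6.94 and 10.7 CPM in contralateral DRG and 59.5 to 98.2 CPM on the injured side. Contralateral replicate 1 overlapped sham, and the log2FC was −1.44 ± 0.48 (edgeR adjusted p = 0.730), or −1.35 ± 0.48 without SOD-CT replicate 1. Cxcl12, a stromal chemokine, was at 15 to 32.1 CPM against 26.7 to 69.4 CPM, and the groups overlapped. Ccl6, chosen after its values were seen, was the 1 member called by DESeq2 without replicate 1 (adjusted p = 0.0188). In the other direction, Ackr1, a decoy receptor for chemokines, measured 107, 193 and 152 CPM in contralateral DRG and 54.1 to 115 CPM in SOD-CT (log2FC 0.70 ± 0.33, edgeR adjusted p = 0.730, and 0.50 ± 0.26 without replicate 1).

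Interferon response genes lay lower by a smaller margin. Of 25 listed genes 21 were tested and 20 had a log2FC below 0, with a median of −0.64 and 4 at an edgeR p below 0.05. With these 7 libraries DESeq2 called 0 of the 21 (0.308% of all genes). Every contralateral library lay below sham in 3 of the 21 (3.83% of all genes). Without replicate 1 all 23 tested were below 0, the median was −0.79, 8 were at p below 0.05, 7 had every contralateral library below sham and DESeq2 called 4, namely Mx1, Rsad2, Usp18 and Ifit3. Over all genes, 5.36% with 7 libraries and 4.45% without replicate 1 were lower at p below 0.05. In that second set 5.85% lay below sham in every library and DESeq2 called 0.796% lower. Mx1, an antiviral GTPase, measured 15.6, 40.6, 22.3 and 28.2 CPM in SOD-CT and 16.0, 9.24 and 14.2 CPM in contralateral DRG. Contralateral replicate 1 was above the lowest sham library and below the other 3, and DESeq2 gave a log2FC of −1.20 ± 0.35 without replicate 1 (adjusted p = 0.0770). Over 26 settings the log2FC of Mx1 ran from −1.43 to −0.76. Rsad2, viperin, held 12.5, 36.4, 6.01 and 39.9 CPM in SOD-CT and 11.4, 5.29 and 3.86 CPM in contralateral DRG, an overlap that remained without replicate 1. Irf7, a transcription factor that amplifies the interferon response, ran from 9.46 to 10.2 CPM in contralateral DRG against 11.3 to 32.4 CPM in SOD-CT, and Bst2, tetherin, from 7.32 to 15.1 against 15.3 to 30.9 CPM. These 2 genes separated in all 7 libraries, and neither edgeR nor DESeq2 called them with 7 libraries. Ifi27, an abundant member, averaged 475 ± 204 CPM (SD, n = 3) against 582 ± 127 CPM (SD, n = 4). Rsad2, Usp18, Irf7 and Bst2 were chosen after their values were seen.

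The promoters of 3 of these genes are shown because each holds the core of an interferon-stimulated response element, searched as GAAA, any 2 bases and GAAA, or its reverse complement, in capitals. They are the 200 bases before the start of the gene from RefSeq on GRCr8, 5′ to 3′ on the strand of the gene. Irf7 lies at chr1:205800024-205800223 on the minus strand, Bst2 at chr16:18254968-18255167 on the minus strand and Ifit3 at chr1:241527126-241527325 on the plus strand. Bst2 holds 2 overlapping matches.
Irf7: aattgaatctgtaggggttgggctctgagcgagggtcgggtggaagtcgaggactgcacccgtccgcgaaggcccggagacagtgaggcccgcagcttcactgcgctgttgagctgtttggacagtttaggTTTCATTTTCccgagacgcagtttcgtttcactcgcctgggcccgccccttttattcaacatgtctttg
Bst2: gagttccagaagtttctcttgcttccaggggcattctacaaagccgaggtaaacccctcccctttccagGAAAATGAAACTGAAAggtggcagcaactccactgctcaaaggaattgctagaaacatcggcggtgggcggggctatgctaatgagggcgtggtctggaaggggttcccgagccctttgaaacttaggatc
Ifit3: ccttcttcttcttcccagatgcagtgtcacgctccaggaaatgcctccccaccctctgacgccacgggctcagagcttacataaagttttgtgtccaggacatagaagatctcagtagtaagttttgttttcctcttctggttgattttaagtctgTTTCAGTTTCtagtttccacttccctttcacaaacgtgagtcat
Searched on both strands, the letters occurred in 917 of 33469 promoters of this length (2.74%) and in 10 of the 18 listed interferon genes that have an entry.

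Fibroblast and vessel genes were lower in part. Of 6 fibroblast markers 5 were tested, all with a log2FC below 0 and a median of −0.95 (−1.28 without replicate 1). Dcn, decorin, a small proteoglycan of the sheath, measured 594, 709, 1220.1 and 1311 CPM in SOD-CT and 131, 577 and 400.1 CPM in contralateral DRG, with no overlap. Lum, lumican, held 111, 183, 236 and 328 CPM in SOD-CT and 25.9, 92.1 and 109 CPM in contralateral DRG, again with no overlap (edgeR log2FC −1.50 ± 0.53, adjusted p = 0.730). Contralateral replicate 1 was the lowest library for both, and without SOD-CT replicate 1 DESeq2 called both lower (adjusted p = 0.0724 for Dcn and 0.0289 for Lum). The fibrillar collagens did not share this, since Col1a1 in contralateral DRG spread from 143 to 1112 CPM around the SOD-CT range of 251 to 906 CPM, and Col3a1 from 90.8 to 689 CPM against 429.9 to 753 CPM. Among 10 tested endothelial markers all 10 were below 0, with a median of −0.78 (−0.63 without replicate 1). Emcn, endomucin, ran from 14.5 to 18.3 CPM against 22.3 to 41.4 CPM with no overlap, and Tie1, an endothelial receptor kinase, from 9.94 to 19.2 against 16.3 to 37.6 CPM. Tie1 was called lower by DESeq2 without replicate 1 (adjusted p = 0.0507). Cldn5, a tight junction protein, and Vwf, a clotting protein, overlapped between the groups.

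Blood genes lay lower in contralateral DRG by an amount that rested largely on 1 sham library. The red cell list had a median log2FC of −3.79 over 8 genes, which was −4.00 without SOD-CT replicate 1, −1.46 without SOD-CT replicate 4 and −0.77 in voom. Hba1, an alpha globin, measured 709.5, 251, 75.6 and 5561 CPM in SOD-CT and 207, 202 and 79.2 CPM in contralateral DRG. SOD-CT replicates 1, 2 and 4 lay above the contralateral range and replicate 3 below it. Hbb reached 1948 CPM in SOD-CT replicate 4 and 15.8 to 226 CPM in the other 3, against 20.8 to 57.9 CPM in contralateral DRG, and globin genes are close copies whose reads may be split. The neutrophil list went from −3.37 to −1.45 without that library, with −3.31 without replicate 1 and −0.53 in voom. S100a9, a neutrophil protein, was high in the same libraries, with 111 and 394 CPM in SOD-CT replicates 1 and 4, 8.07 and 13.3 CPM in the others and 5.80 to 14.8 CPM in contralateral DRG. Mki67, a marker of dividing cells, was at 79.6 CPM in SOD-CT replicate 4 and between 2.60 and 5.66 CPM in the other 6 libraries. The part of blood, red cell and neutrophil content in the macrophage and complement values was not tested.

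Neuron markers lay slightly higher in contralateral DRG, and none was called by edgeR or DESeq2 with 7 libraries or without replicate 1. The 15 markers had a median log2FC of 0.39 with 3 below 0, and 0.23 without replicate 1. Tubb3, neuronal beta tubulin, measured 1212, 3336, 2609 and 2353 CPM in SOD-CT and 4305, 3537 and 3345 CPM in contralateral DRG, and Pou4f1, the sensory neuron transcription factor Brn3a, 96.5, 146, 141 and 119 CPM against 179.8, 165 and 167 CPM. Both genes separated in all 7 libraries, by a log2FC of 0.64 ± 0.40 for Tubb3 and 0.44 ± 0.24 for Pou4f1, which were 0.42 ± 0.25 and 0.32 ± 0.20 without replicate 1. Syt1, the calcium sensor of synaptic vesicles, ran from 49.7 to 61.8 CPM against 17.6 to 50.4 CPM. Tuba1a, a tubulin of growing axons, and Nefl, the light neurofilament, overlapped between the groups, with a Nefl mean of 8474 ± 1296 CPM (SD, n = 3) against 6840.3 ± 2009.9 CPM (SD, n = 4). Nefl on the injured side was lower, at 4299 to 4999.8 CPM.

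Channel lists of sensory neurons had medians above 0 in edgeR, as the neuron markers did. Of 22 listed potassium channels, 20 were tested with a median log2FC of 0.46 and 2 below 0, which became 0.20 over 22 genes without replicate 1. Sodium channels had a median of 0.24 (12 genes, and 0.21 without replicate 1), calcium and HCN channels 0.44 (13 genes) and 0.13 (14 genes), and transducer channels 0.38 (17 genes) and 0.12 (19 genes). In voom without replicate 1 the sodium channel median was −0.0086, with 6 of 12 below 0. Every contralateral library lay above sham in 1 of 20 potassium, 1 of 12 sodium, 1 of 13 calcium and HCN and 2 of 17 transducer channels (5.07% of all genes). In 1 sodium channel all lay below sham (3.83% of all genes). Scn1a, a sodium channel of large neurons, measured 57.5, 192, 181 and 153 CPM in SOD-CT and 254, 223 and 221 CPM in contralateral DRG, against 93.1 to 104 CPM on the injured side. Contralateral Scn1a lay above every sham library (log2FC 0.67 ± 0.39, edgeR adjusted p = 0.730, and 0.40 ± 0.21 without replicate 1). Kcnd1, an A-type potassium channel, and Trpv2, a cation channel of large neurons, also separated upward, at 181 to 257 and 71.1 to 106 CPM in contralateral DRG against 70.4 to 162 and 30.7 to 66.7 CPM in SOD-CT. Ntrk2, the BDNF receptor, ran from 232 to 295 CPM against 109.7 to 198 CPM. Oprl1, the nociceptin receptor, did so too, at 41.2 to 46.7 against 14.9 to 37.5 CPM. SOD-CT replicate 1 was the lowest library for all of Scn1a, Kcnd1, Trpv2, Ntrk2 and Oprl1, and the log2FC of Ntrk2 went from 0.69 ± 0.28 to 0.55 ± 0.23 without it. Scn11a, a sodium channel of nociceptors, overlapped between groups, and Calca, the CGRP precursor, averaged 777 ± 202 CPM (SD, n = 3) in contralateral DRG and 778 ± 205 CPM (SD, n = 4) in SOD-CT.

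Glial lists showed no common direction. Satellite glia markers had a median log2FC of 0.16 over 8 genes (−0.0012 without replicate 1). Kcnj10, the Kir4.1 potassium channel of satellite glia, measured 4.38, 32.7, 29.7 and 12.6 CPM in SOD-CT and 33.4, 45.7 and 42.3 CPM in contralateral DRG, so that every contralateral value was higher (log2FC 1.02 ± 0.57, edgeR adjusted p = 0.730, and 0.68 ± 0.35 without replicate 1). Apoe, the lipid carrier of glia, overlapped at 2523 to 3789 CPM against 1771 to 3787 CPM. Sox2, a progenitor transcription factor kept by satellite glia, was at 23.1 to 35.6 against 17.4 to 24.3 CPM. All 9 Schwann cell markers were below 0, with a median of −0.17 (−0.26 without replicate 1), but this sign turned with the fit. The median was 0.20 without contralateral replicate 1, the library of lowest Schwann cell level, 0.21 without SOD-CT replicate 4 and 0.47 in voom.

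Hormone and stress genes were lower in part. All 18 tested genes of the glucocorticoid response list had a log2FC below 0, with a median of −0.99 (−1.03 without replicate 1), 5 at an edgeR p below 0.05 and 5 with every contralateral library below sham. Over all genes these last 2 shares were 5.36% and 3.83%. In voom the median was −0.36, and without replicate 1 it was −0.42 with 14 of 18 below 0. Tgm2, a transglutaminase, held 77.5, 60.4, 99.5 and 75.6 CPM in SOD-CT and 22.0, 34.2 and 47.8 CPM in contralateral DRG, with no overlap (edgeR log2FC −1.17 ± 0.32, adjusted p = 0.730, and −1.18 ± 0.31 without replicate 1). Cdkn1a, the cell cycle inhibitor p21, ran from 5.29 to 9.88 against 14.1 to 54 CPM, and Sgk1, a kinase induced by corticosteroids, from 27.0 to 35.4 against 41.7 to 118 CPM. These 3 genes separated in all libraries. Among immediate early genes 16 of 19 tested were below 0, with a median of −0.61 (−0.51 over 20 genes without replicate 1). Klf4 held 0.920, 6.64 and 2.24 CPM in contralateral DRG against 9.14 to 15.7 CPM, and its relative Klf2, a flow-sensing factor of endothelium, 1.07, 3.51 and 5.77 CPM against 4.65, 14.3, 14.9 and 18.5 CPM. Klf2 was called lower by DESeq2 without replicate 1 (log2FC −2.20 ± 0.51, adjusted p = 0.00741). Its log2FC ran from −2.53 to −1.49 over 26 settings, and DESeq2 did not call it with 7 libraries. Klf2 and Sgk1 were chosen after their values were seen. The heat shock list had a median of −0.12 with 11 of 18 genes below 0, which turned to 0.14 with 7 of 18 below 0 without replicate 1. Hsp90aa1, the inducible cytosolic HSP90, measured 9501, 6251, 6221 and 9646 CPM in SOD-CT and 3926, 3267 and 4174 CPM in contralateral DRG. Its contralateral level was below that of every sham library and close to that of the injured side (4333 to 4463 CPM), with an edgeR log2FC of −1.06 ± 0.37 (adjusted p = 0.730) and a DESeq2 call without replicate 1 (adjusted p = 0.0614). Hsp90aa1 was the only 1 of the 18 tested heat shock genes below sham in every library (3.83% of all genes). In 3 of the 18, every contralateral library lay above every sham library (5.07% of all genes).

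Lists of energy and protein synthesis turned on SOD-CT replicate 1. Of 71 tested OXPHOS genes, those of mitochondrial respiration, 67 were below 0 with a median log2FC of −0.68, which without this library became 0.06 with 28 below 0, and was −0.07 in voom with all 7 libraries. Ribosomal protein genes went from a median of −0.64 (80 of 82 below 0) to −0.22 (61 of 83). These changes came with the removal of the muscle-bearing library, and both lists hold genes with close copies and pseudogenes. Cholesterol and lipogenesis genes moved less: of 27 genes 26 were above 0 with a median of 0.28, and without replicate 1 the median was 0.10. Peroxisomal and fatty acid oxidation genes turned from a median of −0.26 (11 of 18 below 0) to 0.12 (6 of 19 below 0). Fads2, the desaturase that makes long polyunsaturated fatty acids, measured 43.3, 110.1, 103 and 103 CPM in SOD-CT and 177, 152 and 134 CPM in contralateral DRG. Every contralateral value was higher, with a log2FC of 0.77 ± 0.34 and an edgeR adjusted p of 0.730, and 0.54 ± 0.20 without replicate 1. Scd2, a stearoyl-CoA desaturase, and Hmgcs1, an enzyme of cholesterol synthesis, overlapped. Cd36, a fatty acid transporter of muscle and fat, was at 241 CPM in SOD-CT replicate 1 and 14.2 to 44.2 CPM in the other sham libraries, against 5.63 to 18.4 CPM in contralateral DRG. Gpx1, a glutathione peroxidase, likewise reached 414 CPM in that library, and its contralateral values of 66.1 to 75.2 CPM stayed below the other sham values of 78.7 to 169 CPM.

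Hox genes keep the position along the body axis in adult ganglia. The tested 18 of 30 had a median log2FC of 0.04, which turned to −0.12 without replicate 1, where 13 of 19 were below 0. SOD-CT replicate 1 had the highest summed Hox level of the sham libraries. Hoxd4 held 46.7, 10.2, 8.36 and 15.9 CPM in SOD-CT and 5.08, 5.60 and 5.40 CPM in contralateral DRG, while Hoxb6 held 10.4, 9.46, 11.1 and 11.4 CPM against 19.9, 16.9 and 13.6 CPM. The 2 genes thus separated in opposite directions, and on the injured side of the same rats Hoxb6 was at 6.18 to 7.57 CPM. Whether the DRG of the groups came from the same spinal levels was not tested.

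**Figure D3:**
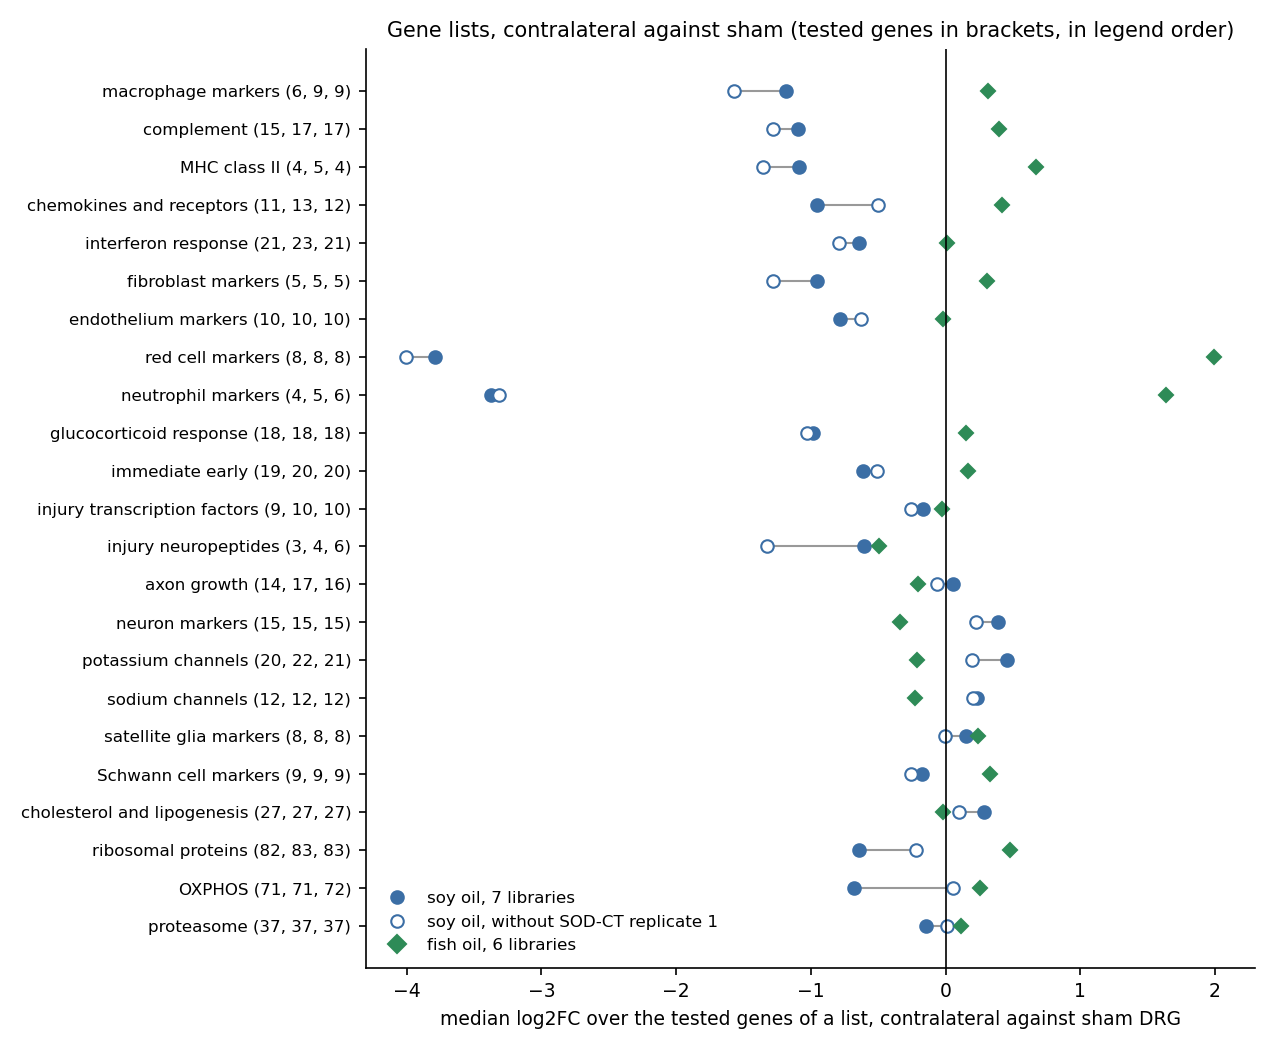
Median log2FC of the tested genes of 23 lists, contralateral against sham DRG, on the soy oil diet with 7 libraries (filled circles), on the soy oil diet without SOD-CT replicate 1 (open circles) and on the fish oil diet (diamonds), with the numbers of tested genes in brackets. The fish oil values come from a fit of 13 libraries of both diets. Macrophage and complement lists sit near −1.19 and −1.10 with 7 libraries and at −1.57 and −1.28 without that library, whereas OXPHOS moves from −0.68 to 0.06.

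The genes with the smallest p in each direction were taken by rule, since none was called. Among the 10 lower genes, Pi16, a marker of adventitial fibroblasts, measured 5.12, 30.8, 17.9 and 18.0 CPM in SOD-CT and 1.88, 3.98 and 3.31 CPM in contralateral DRG. Its edgeR log2FC was −2.56 ± 0.60 (adjusted p = 0.730) with 7 libraries and −2.87 ± 0.40 (adjusted p = 0.603) without replicate 1, where DESeq2 gave an adjusted p of 4.47e-09. Plac8, a gene of myeloid and lymphoid cells, held 9.64, 11.6, 15.1 and 26.6 CPM against 1.66, 4.04 and 3.27 CPM (log2FC −2.39 ± 0.50). The other 8 were Rps27a-ps1, a ribosomal protein pseudogene whose reads may come from its parent gene, Clic2, Clec14a and Ctgf, which are expressed in endothelium and stroma, Anxa3, Arl4a, Apobr and Slfn2. All 10 had every contralateral library below every sham library, and DESeq2 called all 10 lower, both with 7 libraries and without replicate 1. Over all genes these shares were 3.83% and 0.308% with 7 libraries. The 10 were picked by their p in these same libraries, so neither trait is separate evidence. Ctgf, a matricellular growth factor, ran from 3.83 to 12.0 CPM in contralateral DRG, 23.9 to 78.5 CPM in SOD-CT and 3.13 to 12.8 CPM on the injured side, so that both sides of the SOD-CCI rats lay below sham. Clec14a showed the same order, at 5.41 to 8.09, 15.5 to 22.3 and 4.82 to 14.8 CPM.

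The 10 higher genes each differed by less than Pi16 and Plac8 did. Gfy, golgi-associated olfactory signaling regulator, measured 45, 59.1, 60.1 and 63.6 CPM in SOD-CT and 165, 113 and 76.8 CPM in contralateral DRG (log2FC 1.05 ± 0.29, edgeR adjusted p = 0.730, and 0.94 ± 0.27 without replicate 1). Slc7a1, a cationic amino acid transporter, held 22.9, 68.1, 74.7 and 45.3 CPM against 145, 113 and 101 CPM. Gpx2, a glutathione peroxidase, was the only 1 of the 10 whose ranges overlapped, at 28.6 to 97.5 CPM against 85.9 to 226 CPM. The others were Rlbp1, Lcmt2, Pnpla1, Cpeb3, Tpbgl, Gpr89b and Slitrk1, with a log2FC between 0.64 and 1.57. Neither edgeR nor DESeq2 called any of the 10 with 7 libraries or without SOD-CT replicate 1, while DESeq2 called Gpx2 without SOD-CT replicate 4 (adjusted p = 0.0423) and Gfy without contralateral replicate 3 (adjusted p = 0.0974).

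**Figure D4:**
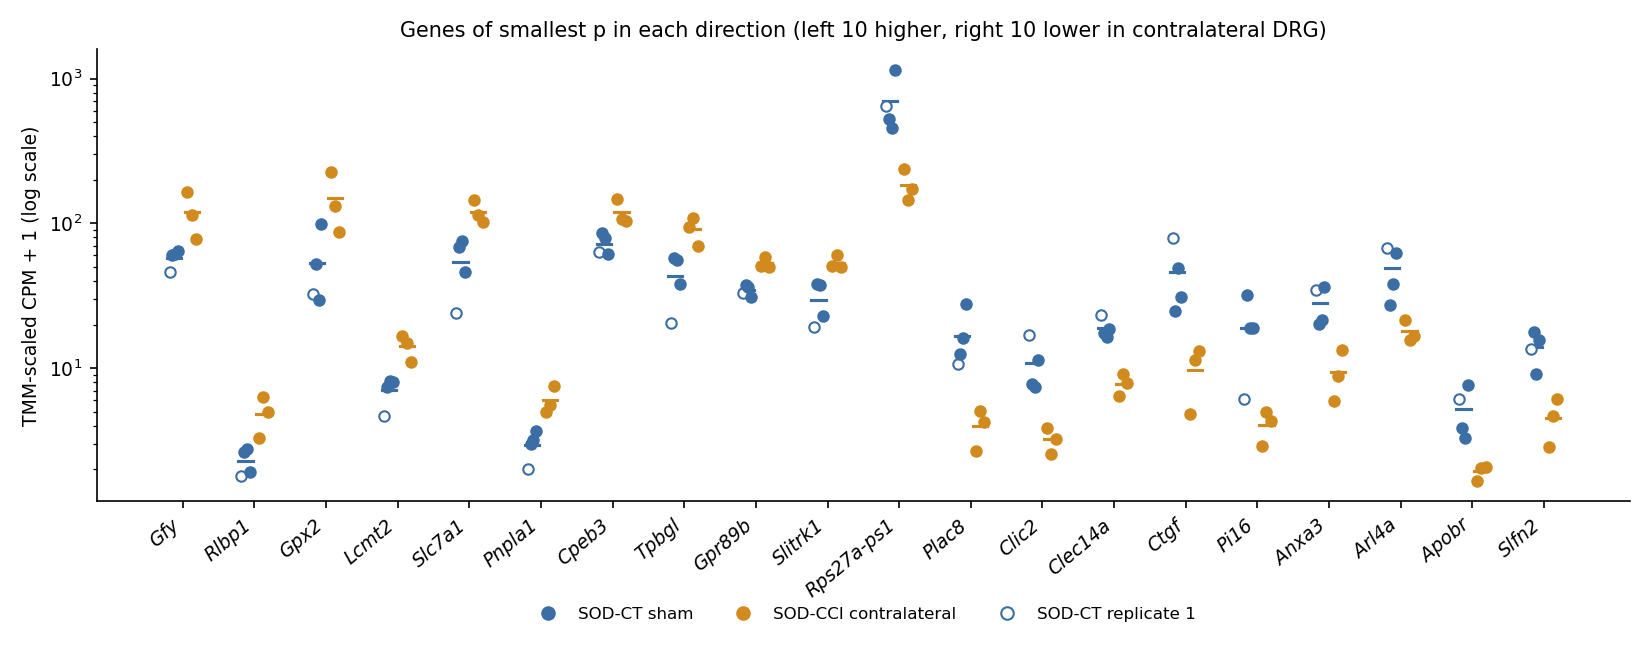
Levels of the 10 higher (left) and 10 lower (right) named genes of smallest edgeR p in SOD-CT and contralateral libraries, as TMM-scaled CPM plus 1 on a log axis (points are libraries, bars are group means, the open circle is SOD-CT replicate 1). The groups do not overlap for 19 of the 20 genes, which were picked by p in these same libraries. Over all genes 3.83% lay below and 5.07% above sham in every library. The log2FC is −2.56 for Pi16 and 1.05 for Gfy. Sizes overlap between the sets, with Clec14a from −1.57 to −1.15 and Rlbp1 from 1.26 to 1.83 over 26 settings of processing.

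The same contrast on the fish oil diet (FOD) set the right DRG of 3 FOD-CCI rats against the left DRG of 3 FOD-CT rats. It was fitted on 13 libraries of both diets, so that the soy oil libraries entered its filter, scaling and spread. It called 0 of 14007 genes (lowest edgeR adjusted p = 1.00), with 127 higher (0.907%) and 112 lower (0.8%) at p below 0.05. The macrophage list had a median log2FC of 0.32 over 9 genes and the complement list of 0.40 over 17 there. In the fit of the 7 soy oil libraries alone, these were −1.19 over 6 genes and −1.10 over 15. Without SOD-CT replicate 1 they were −1.57 over 9 and −1.28 over 17. C1qa measured 64.3, 17.8 and 24.8 CPM in FOD-CT and 108, 27.3 and 67.4 CPM in FOD contralateral DRG, and Lyz2 147, 107 and 202 CPM against 176, 288 and 424 CPM. The ranges overlapped for both genes on the fish oil diet. FOD contralateral replicate 1 stood apart with a summed neuron marker level of 5052 CPM, where the other FOD contralateral libraries held 29871 and 33893 CPM. It also held 4290 CPM of spinal cord markers, and FOD-CT replicate 1 held 3289 CPM, against 9.63 to 34.7 CPM in the other 4 FOD libraries of this contrast. These 2 libraries had the highest C1qa value of their groups. Without both, the FOD medians of the macrophage and complement lists were 0.81 and 0.84. Red cell genes summed to 1249 to 5060 CPM in FOD contralateral DRG and 391 to 916 CPM in FOD-CT. With the replicate numbers of the FOD rats as a block, edgeR again called 0 genes, with medians of 0.40 for both lists.

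The difference between diets in the contralateral against sham contrast was tested as an interaction over 13 libraries and called 0 of 14007 genes (lowest edgeR adjusted p = 0.921). At p below 0.05 it gave 521 genes higher (3.72%) and 116 lower (0.828%) on the fish oil diet relative to the soy oil diet, 637 in all against 700 expected. DESeq2 called 25 genes, 24 of them higher. For Lyz2 the difference in log2FC was 2.71 ± 0.69 (unadjusted p = 0.00168, edgeR adjusted p = 0.921), and for C1qa it was 2.30 ± 0.81 (adjusted p = 0.921). Over the 9 macrophage markers tested, all 9 differences were above 0, with a median of 1.76 that stayed between 1.36 and 2.30 when each library was left out in turn, and 2 of the 9 were at p below 0.05. Without replicate 1 of both FOD groups, the median was 2.12 over 10 markers, and with the FOD numbers as a block it was 1.80 over 9. Other cell types differed between the diets along with them: the median difference was 5.62 over 8 red cell genes, all at p below 0.05, 4.91 over 6 neutrophil genes, 4 of them at p below 0.05, and −0.69 over 15 neuron markers, all below 0. The part of spinal cord, blood and neuron content in the macrophage difference was not tested. The ribosomal protein list had a median difference of 1.14, which was 0.69 without SOD-CT replicate 1, and that of OXPHOS went from 0.99 to 0.13. For Atf3, with a log2FC of −1.69 on the soy oil diet and −1.43 on the fish oil diet, the difference was 0.28 ± 0.76 (edgeR adjusted p = 0.968).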

How the data were processed

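RNA of 20 rat DRG had been sequenced by the authors from poly-A selected libraries. Reads were trimmed with fastp, aligned with HISAT2 and counted per gene with featureCounts 1.5.0-p3, and the deposited values are raw counts for 39747 genes beside FPKM values scaled by the authors. Strand, handling of multiple alignments and genome build are not given in the sources used here. Of the gene IDs, 70.7% matched RefSeq.

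Groups were taken from the labels, and 0 count columns were left over. Totals ran from 22792829 to 43158491 counts in the 7 libraries, and the number of rats limits the precision. Genes reaching 10 counts in 90% or more of the libraries of a fit were kept, scaled by TMM and tested two-sided with edgeR 4.0.16 (glmQLFit, glmQLFTest) in R 4.3.3, with Benjamini-Hochberg adjustment over all genes tested. The threshold for a call was an adjusted p no larger than 0.1 together with a 1.2-fold difference. DESeq2 1.42.0 and limma 3.58.1 voom with sample quality weights were alternatives. CPM values are counts scaled by TMM over the 20 libraries. An exact permutation test of 3 against 4 rats cannot go below p = 0.0571 and was not used.

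Named genes were the 10 of smallest p in each direction and, in each list, called members and up to 4 of highest CPM or smallest p, with others marked in the text. Some genes that the rule names are not reported here. The members and the 45 gene lists were chosen with earlier results of these data known. Tests were run first on counts simulated from the means, dispersions and sizes of these libraries. Of 50 genes changed 4-fold, DESeq2 recovered 42 with 7 libraries and 41 without SOD-CT replicate 1, edgeR 31 and 38, and voom 30 and 37. Unchanged genes called were 58 and 73 in DESeq2, 19 and 16 in edgeR, and 17 and 19 in voom. Promoters were read from RefSeq (GRCr8), a build that need not be that of the counts. Replicate numbers were not used to pair rats, since same-numbered libraries deviated together in replicates 1 and 3 only (correlations 0.192, −0.117 and 0.445). Those of the FOD contrast did in all 3 numbers (0.697, 0.216 and 0.259), and a fit with these numbers as a block was added after seeing the data. Nothing in the labels ties rats of the 2 groups to a shared batch.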

Additional observations from a re-analysis of the deposited data

Results flagged for a closer look

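Within the 4 SOD-CT libraries, 148 measures were tested for 1 library far from the other 3 by Dixon's ratio, a rule that chance meets in about 1 of 20 groups, and 19 met it. SOD-CT replicate 1 was the extreme library for 11 of them. Its share of counts in the skeletal muscle list was 18.3%, and its summed levels were 280530.0 CPM for the skeletal muscle list, 471 CPM for adipocyte markers, 53992 CPM for OXPHOS, 3892 CPM for peroxisomal and fatty acid oxidation genes, 720.4 CPM for circadian clock genes and 239.8 CPM for Hox genes. The single genes were Cd36 at 241 CPM, Cd55 at 345 CPM, Fads2 at 43.3 CPM and Oprl1 at 14.9 CPM. SOD-CT replicate 4 was the extreme library for the other 8. Its summed levels were 10757.5 CPM for red cell markers and 337 CPM for proliferation genes, and the single genes were Hba1 at 5561 CPM, Hbb at 1948 CPM, Mki67 at 79.6 CPM, Cd59 at 841 CPM, Cldn5 at 179.5 CPM and Sgk1 at 118 CPM.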

How the results depend on the processing

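The main count of 0 called genes stayed at 0 in edgeR under robust estimation, RLE size factors, removal of the muscle genes before TMM, other filters, 13 or 20 libraries, an adjusted p of 0.05, a replicate block and each replicate left out in turn. It moved to 41 with DESeq2 and 11 with limma voom, and 843, 1108 and 1425 genes were at an unadjusted p below 0.05 in edgeR, DESeq2 and voom. DESeq2 with each replicate left out and voom without SOD-CT replicate 1 were added after seeing the data. DESeq2 then called 14 to 246 genes (118, 149, 246 and 16 without SOD-CT replicates 1 to 4, and 32, 14 and 62 without contralateral replicates 1 to 3), and voom 11. For the difference between diets edgeR called 0 under every alternative, DESeq2 25 and voom 4.

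With the replicate block edgeR again called 0 genes in both comparisons, with 553 genes of the contralateral against sham contrast at p below 0.05. A replicate block among the FOD libraries alone also left the difference between diets at 0 called genes (787 at p below 0.05 against 637), as did leaving out replicate 1 of both FOD groups (557), both added after seeing the data. In the FOD contrast the block gave 353 genes at p below 0.05 against 239. The labels do not say that a number marks a shared batch.

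Direction reversed for 3 named genes whose main log2FC lay near 0. For Gap43 it became −0.0056 with DESeq2, −0.50 with voom, −0.0055 with RLE, −0.0012 with 13 libraries and −0.51 with voom without SOD-CT replicate 1, ran from −0.28 to 0.23 in edgeR with each replicate left out, and was −0.14, −0.042, −0.024 and −0.29 in DESeq2 without SOD-CT replicates 1, 3 and 4 and contralateral replicate 1. Col1a1 became 0.19 with voom, 0.15 with voom without SOD-CT replicate 1, −0.85 to 0.39 in edgeR with each replicate left out, and 0.10, 0.13 and 0.39 in DESeq2 without SOD-CT replicates 3 and 4 and contralateral replicate 1. Calca became 0.022 with filterByExpr, 0.019 without a filter, 0.012 with 20 libraries, 0.043 with the replicate block, −0.16 to 0.17 in edgeR with each replicate left out, and 0.15, 0.015 and 0.19 in DESeq2 without SOD-CT replicates 2 and 4 and contralateral replicate 2. The cause was not tested. The medians of the macrophage, complement, MHC class II and interferon lists stayed below 0 in all 26 settings, macrophages between −1.57 and −0.998. Those of neurons and potassium channels stayed above 0, and OXPHOS ran from −1.09 to 0.07. With 3 and 4 rats, small differences cannot be told from the spread between rats, and genes at 0 in SOD-CT replicate 1 entered only the fits without it.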
